A study of Mus musculus with 6 samples.

Results

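Neuropeptide Y (gene Npy) and the 3 receptors through which it is known to act on sensory neurons, Npy1r, Npy2r and Npy5r, were followed in bulk RNA-seq of mouse L4/5 dorsal root ganglia, where the cell bodies of sensory neurons lie. The members are the rows that carry these gene symbols, 4 of the 48401 genes listed. All libraries came from male C57BL/6J mice aged 8 weeks that had been given small interfering RNA (siRNA) into the fluid around the spinal cord, 3 libraries with siCLAP, aimed at the noncoding RNA CLAP, and 3 with siNC, taken here as the control siRNA. No untreated animals are among the groups used here, so what both siRNA injections share cannot be seen. The labels give no siRNA dose and no time after injection, and do not say whether each library came from its own mouse. P-values therefore measure only the spread between these libraries, which may be technical. The members were chosen by function and with their siCLAP and siNC levels already known, so their differences between the groups are given as descriptions, without a test.

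Neuropeptide Y is a peptide transmitter that is cut from a precursor, amidated and stored in dense-core vesicles. Its receptors couple to Gi/o proteins, which lower cyclic AMP, close voltage-gated calcium channels and open potassium channels, so that the peptide mostly dampens neurons. In rodent ganglia Npy1r is known from small peptidergic nociceptors, and Npy2r acts as a presynaptic brake on afferent terminals and is known from a class of myelinated nociceptors. Npy itself is scarce in intact sensory neurons and is known for its induction after nerve injury, while sympathetic neurons make it constantly.

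The coding sequences are shown to identify the members and to let the 3 receptors be compared as RNA. They are taken from the GENCODE M21 transcripts on GRCm38, 5′ to 3′. For the receptors the first 120 bases are given, with the start codon in capitals. For Npy the whole coding sequence of 294 bases is given, and the capitals mark the codons for Gly-Lys-Arg, the signal at which the precursor is cut and the peptide amidated.
Npy1r: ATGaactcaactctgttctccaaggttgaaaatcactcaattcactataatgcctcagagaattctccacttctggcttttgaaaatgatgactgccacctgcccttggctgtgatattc
Npy2r: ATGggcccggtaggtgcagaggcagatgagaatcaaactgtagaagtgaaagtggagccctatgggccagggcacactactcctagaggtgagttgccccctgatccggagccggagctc
Npy5r: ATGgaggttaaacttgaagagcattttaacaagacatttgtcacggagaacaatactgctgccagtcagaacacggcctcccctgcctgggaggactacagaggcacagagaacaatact
Npy: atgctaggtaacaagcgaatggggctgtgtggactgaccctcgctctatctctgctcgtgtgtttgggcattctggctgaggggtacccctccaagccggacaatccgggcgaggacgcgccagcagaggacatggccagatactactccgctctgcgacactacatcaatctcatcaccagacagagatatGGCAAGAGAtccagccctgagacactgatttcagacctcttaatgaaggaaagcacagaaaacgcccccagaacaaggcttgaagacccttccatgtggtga

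The whole receptor coding sequences run to 1149 bases for Npy1r, 1146 for Npy2r and 1401 for Npy5r, and the longest run of identical bases is 12 between Npy1r and Npy2r, 11 between Npy1r and Npy5r, and 10 between Npy2r and Npy5r. In the GENCODE M21 annotation Npy1r lies at chr8:66697192-66706792 on the plus strand and Npy5r at chr8:66679965-66688128 on the minus strand. The pair is arranged head to head, with 9064 bases between the starts and 0 annotated genes in between. Npy2r lies at chr3:82538383-82548084 on the minus strand and Npy at chr6:49822710-49829507 on the plus strand. All 4 are protein-coding genes that overlap 0 other annotated genes. Of the 50-base stretches of the Npy1r transcripts, 2.84% also occur in transcripts of other genes, against 0 for Npy2r, Npy5r and Npy.

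Total expected counts lay between 25982046 and 39239131 in the siCLAP libraries and between 21386768 and 46317735 in the siNC libraries. The sensory neuropeptide gene Calca, read below as a marker of peptidergic nociceptors, averaged 3200 ± 201 TPM in siCLAP and 3090 ± 98.1 TPM in siNC (SD, n = 3 each). TPM is a level scaled to gene length and to the library total, so that it can be compared between genes. The target RNA was not analysed here, and the knockdown could therefore not be verified.

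Within every library the order of the levels was the same, with Npy1r above Npy2r, then Npy, then Npy5r. The mean level of Npy1r over the 6 libraries, 42.4 TPM, was higher than that of 76.2% of the 19141 genes with a mean of at least 1 TPM. The mean level of Npy2r, 21.1 TPM, was higher than that of 59.6% of them. Npy averaged 2.17 TPM, above 13.0% of these genes, and Npy5r averaged 0.714 TPM, below the minimum of 1. The ranges of the neighbours Npy and Npy5r overlapped, with Npy at 0.652 to 4.03 TPM and Npy5r at 0.479 to 1.03 TPM over the 6 libraries. The lowest level of Npy1r, 37.0 TPM, was above the highest level of Npy2r, 24.2 TPM.

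Npy1r, which encodes the Y1 receptor, was the more abundant receptor and was higher in siCLAP. Its level was 51.1, 46.4 and 45.0 TPM in siCLAP replicates 1, 2 and 3, against 37.0, 37.4 and 37.3 TPM in siNC replicates 1, 2 and 3. All 3 siCLAP libraries lay above all 3 siNC libraries. The siNC libraries were nearly level with each other, with a coefficient of variation of 0.62%, against 6.77% in siCLAP, where siCLAP-1 was the highest. The means were 47.5 ± 3.21 TPM in siCLAP and 37.2 ± 0.231 TPM in siNC (SD, n = 3 each), and the edgeR estimate was 1.29-fold, a log2 fold change of 0.37 ± 0.06 SE. These values rest on 1405 to 2318 reads in a siCLAP library and 912 to 2000 reads in a siNC library. In bulk samples more cells of a type and more RNA per cell cannot be told apart, which holds for every difference given here.

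Npy2r, which encodes the Y2 receptor, differed in the other direction. Its level was 17.6, 18.6 and 20.4 TPM in siCLAP replicates 1, 2 and 3, against 21.9, 24.2 and 23.8 TPM in siNC replicates 1, 2 and 3. All siCLAP libraries lay below all siNC libraries, though siCLAP-3 and siNC-1 came close to each other. The means were 18.9 ± 1.43 TPM in siCLAP and 23.3 ± 1.19 TPM in siNC, and the edgeR log2 fold change was −0.29 ± 0.07 SE, so that the level in siNC was 1.22-fold that in siCLAP. The library with the highest Npy1r, siCLAP-1, had the lowest Npy2r.

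Npy5r, which encodes the Y5 receptor, was detected in every library at a low level. It had 28, 16 and 27 reads in siCLAP replicates 1, 2 and 3, against 21, 25 and 9 reads in siNC replicates 1, 2 and 3. Scaled to length and library total this gave 0.802, 0.687 and 1.03 TPM in siCLAP and 0.678, 0.608 and 0.479 TPM in siNC. The groups did not overlap, but the lowest siCLAP library (0.687 TPM) and the highest siNC library (0.678 TPM) were nearly equal. In a fit without the TPM minimum the log2 fold change was 0.50 ± 0.30 SE. Summed over the libraries, 71 reads in siCLAP and 55 reads in siNC gave a rate ratio of 1.41, with an exact 95% interval of 0.976 to 2.04 that covers counting error only.

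**Figure D1:**
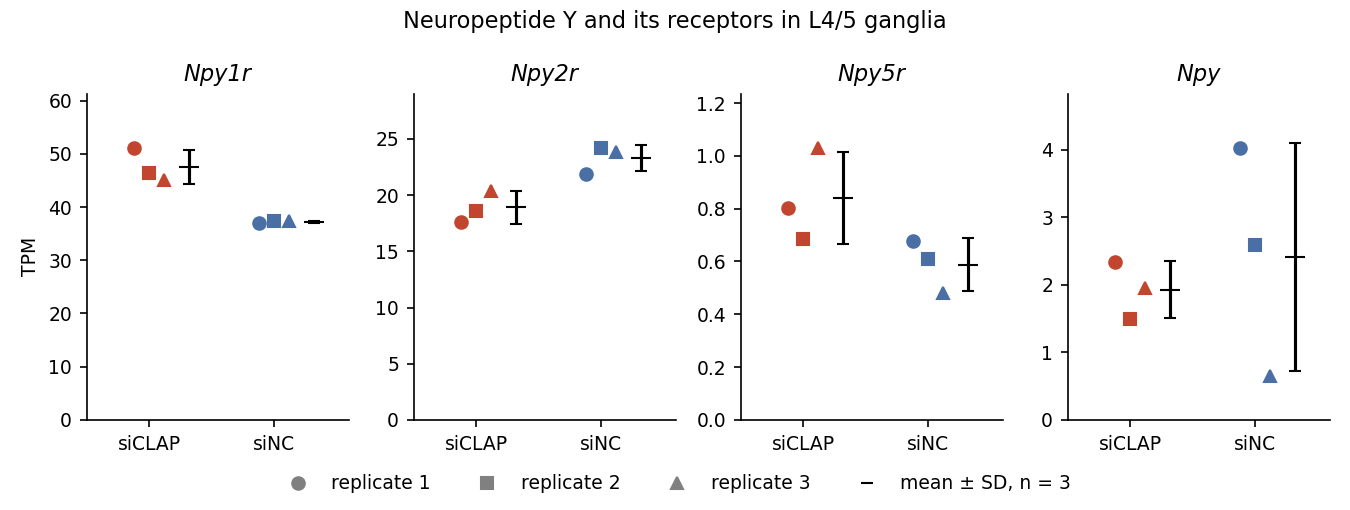
Levels of the 3 receptor genes and of Npy in TPM on linear axes that start at 0, with siCLAP libraries in red, siNC libraries in blue, a symbol for each replicate number, and bars for mean ± SD (n = 3). Npy1r was at 45.0 TPM or more in siCLAP and at 37.4 TPM or less in siNC, Npy2r lay the other way round, and for Npy the siNC libraries spread widest, from 0.652 to 4.03 TPM.

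Groups that do not overlap, with siCLAP higher, were seen in 9.39% of the genes with a mean of at least 1 TPM, as in Npy1r, and in 7.08% of all genes with a count, as in Npy5r. Groups that do not overlap with siCLAP lower were seen in 12.2% of the genes with at least 1 TPM, as in Npy2r, and in 9.44% of all genes with a count. In either direction the share was 21.6% of the genes with at least 1 TPM. Since the members were chosen with these values known, nothing is read from their number.

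With Npy1r higher and Npy2r lower in siCLAP, the make-up of the receptor transcripts differed between the groups. This make-up is computed within a library and does not depend on how libraries are scaled to each other, but it restates the levels above and is given without a test. The ratio of Npy1r TPM to Npy2r TPM was 2.90, 2.49 and 2.20 in siCLAP replicates 1, 2 and 3, against 1.69, 1.55 and 1.57 in siNC replicates 1, 2 and 3. Every siCLAP ratio was above every siNC ratio. Npy1r made up 70.6% ± 2.90 of the summed TPM of the 3 receptors in siCLAP and 60.9% ± 0.945 in siNC (SD, n = 3 each). The share of Npy2r was 28.1% ± 2.75 in siCLAP and 38.1% ± 1.10 in siNC. Npy5r held 1.25% ± 0.265 in siCLAP and 0.965% ± 0.182 in siNC. The summed receptor level was closer between the groups, at 67.2 ± 2.02 TPM in siCLAP and 61.1 ± 1.36 TPM in siNC. Even so, the sums did not overlap, at 65.7 to 69.5 TPM in siCLAP and 59.6 to 62.2 TPM in siNC.

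**Figure D2:**
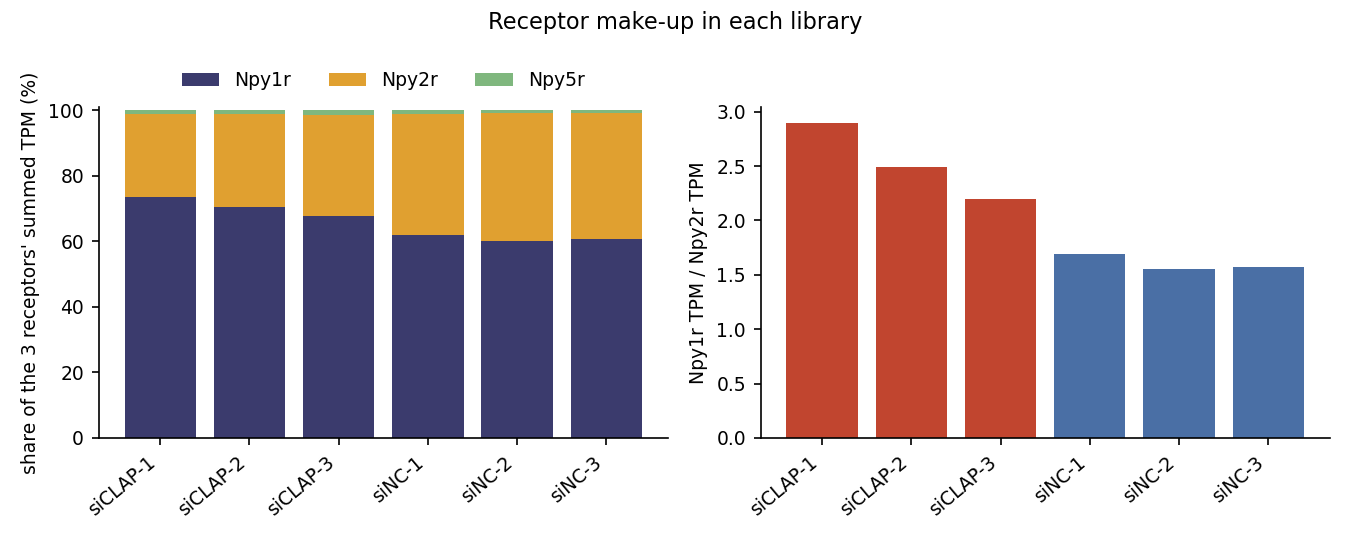
Left, share of Npy1r, Npy2r and Npy5r in the summed TPM of the 3 receptors in each library, in percent. Right, ratio of Npy1r TPM to Npy2r TPM in each library, siCLAP in red and siNC in blue, with 2.20 as the lowest siCLAP ratio and 1.69 as the highest siNC ratio.

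The ligand gene Npy was near the detection limit and showed no separation of the groups. Its level was 2.34, 1.49 and 1.95 TPM in siCLAP replicates 1, 2 and 3, against 4.03, 2.59 and 0.652 TPM in siNC replicates 1, 2 and 3. The siCLAP values all lay inside the range of the siNC values, which held both the highest and the lowest library. The expected counts behind these levels were 20, 8.5 and 12.5 in siCLAP and 30.5, 26 and 3 in siNC. The log2 fold change was −0.41 ± 0.44 SE, against 0.03 without siNC-1 and −0.72 without siNC-3. Summed counts of 41 in siCLAP and 60 in siNC, the nearest whole numbers, gave a rate ratio of 0.745, with an exact 95% interval of 0.488 to 1.13 for counting error.

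**Figure D3:**
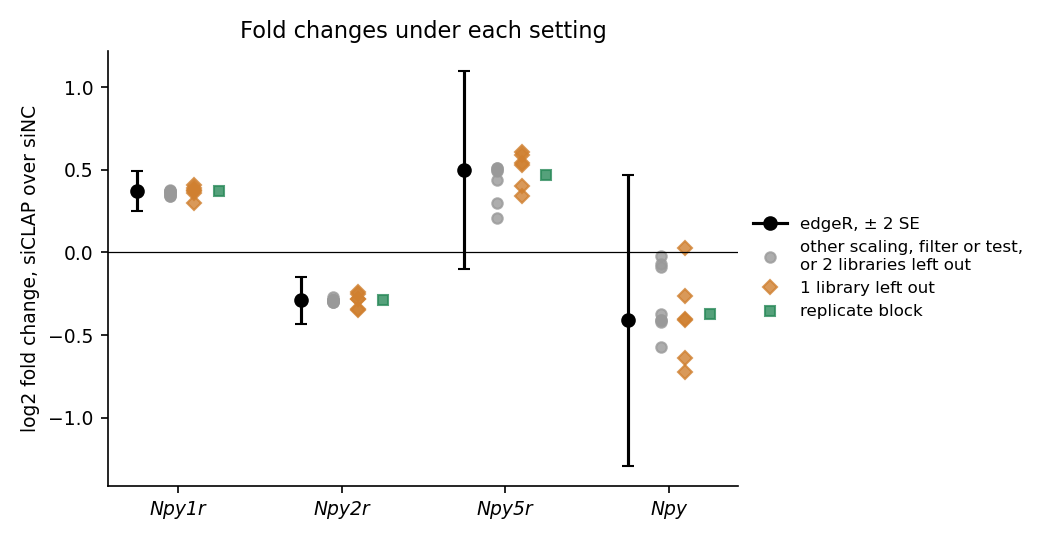
Log2 fold changes of siCLAP over siNC for the 4 genes, with the edgeR estimate and 2 standard errors in black, other scalings, filters and tests and the fit without 2 libraries in grey, fits without 1 library in orange, and the fit with the replicate number as a block in green. Npy1r stayed between 0.30 and 0.41 and Npy2r between −0.35 and −0.24, while Npy ran from −0.72 to 0.03.

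The other ligands and receptors of the family were all but absent. Pyy and Ppy, which encode peptide YY and pancreatic polypeptide, had 0 reads in all 6 libraries. Npy4r, the receptor that prefers pancreatic polypeptide, had 10 reads over the siCLAP libraries and 8 over the siNC libraries. Npy6r, a further receptor of the family in mice, had 2 reads in each group. These 4 genes were below the TPM minimum and were not tested.

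Of 45 tested genes of NPY signalling outside the set, edgeR's quasi-likelihood test with Benjamini-Hochberg adjustment called 0, against 0.293% of all 19141 tested genes. Over all genes 14 rose (0.0731%) and 42 fell (0.219%). An unadjusted p under 0.05 was reached by 16 of the 45 genes and by 3248 of all tested genes. DESeq2 called 5 of the 45, all lower in siCLAP, namely Adcy5, Adcy6, Adrbk2, Gnao1 and Rgs3. Over all 19141 tested genes DESeq2 called 608, of which 369 were lower. Without siCLAP-3, edgeR called Adcy5, Gnao1 and Rgs3, beside 340 of 19139 genes in all, of which 226 were lower. The median log2 fold change was −0.0112 over the 45 genes and −0.00178 over all tested genes.

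The machinery that makes and stores neuropeptides was abundant, and 0 of its 10 genes passed, with 5 estimates above 0 and 5 below and a median of 0.0152. The smallest p in this group belonged to Pcsk1n, which encodes an inhibitor of a prohormone convertase, at 500 ± 25.5 TPM in siCLAP and 449 ± 28.3 TPM in siNC (log2 fold change 0.17 ± 0.06, edgeR adjusted p = 0.187). Chgb, which encodes the vesicle protein chromogranin B, averaged 120 ± 6.55 TPM in siCLAP and 110 ± 3.52 TPM in siNC (log2 fold change 0.14 ± 0.05, edgeR adjusted p = 0.196). Compared with these levels the ligand Npy, at 1.93 TPM in siCLAP and 2.42 TPM in siNC, was a minor transcript.

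Among 6 peptidases known to cut NPY, 3 were tested and 0 passed. Mme, the peptidase neprilysin, averaged 11.1 ± 0.505 TPM in siCLAP and 10.5 ± 1.08 TPM in siNC. Klkb1, plasma kallikrein, averaged 2.31 ± 0.597 TPM in siCLAP and 2.52 ± 0.333 TPM in siNC. Dpp4, whose enzyme trims NPY to a form that prefers the Y2 and Y5 receptors over Y1, stayed under 1 TPM in every library, at 0.201 ± 0.0437 TPM in siCLAP and 0.493 ± 0.394 TPM in siNC.

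Of the 11 genes of Gi/o alpha subunits and their beta and gamma partners, 0 passed, with a median of 0.0228. Gnao1, the alpha subunit of Go, had the smallest p, at 152, 145 and 178 TPM in siCLAP and 207, 197 and 202 TPM in siNC. Its log2 fold change was −0.33 ± 0.07 (edgeR adjusted p = 0.0591), and it passed with DESeq2 and without siCLAP-3. Gnai1, the alpha subunit of a Gi protein, stood at 108 ± 2.34 TPM in siCLAP and 99.2 ± 2.53 TPM in siNC (log2 fold change 0.14 ± 0.04, edgeR adjusted p = 0.14).

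The effectors on which these G proteins act are adenylyl cyclases, GIRK potassium channels and presynaptic calcium channels. Of 11 tested genes 0 passed and 9 estimates were below 0, with a median of −0.152 against −0.00178 over all tested genes. Adcy6, an adenylyl cyclase, averaged 15.6 ± 0.699 TPM in siCLAP and 18.9 ± 1.82 TPM in siNC (log2 fold change −0.26 ± 0.07, edgeR adjusted p = 0.11). Adcy5, another adenylyl cyclase, averaged 34.6 ± 3.09 TPM in siCLAP and 40.7 ± 1.55 TPM in siNC (log2 fold change −0.22 ± 0.06, edgeR adjusted p = 0.12). Kcnj3, the most abundant GIRK subunit here, was at 15.9 ± 0.354 TPM in siCLAP and 15.1 ± 1.17 TPM in siNC, while Kcnj5 had 1 read over the siCLAP libraries and 0 over the siNC libraries.

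Of 10 genes that end receptor signalling, RGS proteins, receptor kinases and arrestins, 0 passed, with a median of −0.0889. Rgs3, which speeds up the turn-off of G proteins, averaged 17.4 ± 0.558 TPM in siCLAP and 21.5 ± 0.181 TPM in siNC (log2 fold change −0.29 ± 0.05, edgeR adjusted p = 0.0551), and like Gnao1 it passed with DESeq2 and without siCLAP-3. Rgs2, of the same family, averaged 11.4 ± 0.689 TPM in siCLAP and 9.01 ± 0.372 TPM in siNC (log2 fold change 0.35 ± 0.09, edgeR adjusted p = 0.0905).

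Markers of sensory neuron classes were read beside the receptors. Of 7 peptidergic nociceptor markers, the class linked to Npy1r, 0 passed and the median log2 fold change was 0.0337. The list was mixed, with 4 estimates above 0 and 3 below. Tac1, which encodes substance P, averaged 317 ± 31.7 TPM in siCLAP and 253 ± 16.2 TPM in siNC (0.34 ± 0.07, edgeR adjusted p = 0.0766). Adcyap1, which encodes the peptide PACAP, averaged 83.7 ± 10.9 TPM in siCLAP and 66.7 ± 2.99 TPM in siNC (0.34 ± 0.08, edgeR adjusted p = 0.0907). Groups did not overlap for either gene, which with siCLAP higher held for 9.39% of all tested genes. DESeq2 called both, as it did Kit of the same list, which was lower in siCLAP (−0.18 ± 0.05, edgeR adjusted p = 0.11). The groups did not overlap for Kit either, which with siCLAP lower held for 12.2% of all tested genes. The 7 peptidergic markers summed to 4260 to 4610 TPM in siCLAP and 4180 to 4330 TPM in siNC, most of it from Calca. Of 6 non-peptidergic nociceptor markers 4 fell, namely the sodium channel gene Scn11a (−0.43 ± 0.05, edgeR adjusted p = 0.0204), the receptor gene Mrgprd (−0.37 ± 0.06, edgeR adjusted p = 0.0397), Plxnc1 and Gfra2, with a list median of −0.334 and summed levels of 971 to 1030 TPM in siCLAP and 1210 to 1300 TPM in siNC. Over all tested genes 0.219% fell. Of 7 markers of myelinated mechanoreceptors and proprioceptors, Pvalb of proprioceptors rose (0.45 ± 0.06, edgeR adjusted p = 0.0215). The list had 5 estimates above 0 and 2 below, with a median of 0.245. Those below were Ntrk2 (−0.13 ± 0.05, edgeR adjusted p = 0.206) and Ntrk3 (−0.07 ± 0.09, edgeR adjusted p = 0.741). The list summed to 2500 to 2820 TPM in siCLAP and 2130 to 2550 TPM in siNC, most of it from Nefh. No list was drawn up for the myelinated nociceptors linked to Npy2r. Of 5 C-fibre touch neuron markers 0 passed, with 1 estimate above 0, 4 below and a median of −0.0861. Th (−0.30 ± 0.06, edgeR adjusted p = 0.0737) and Cdh9 (−0.32 ± 0.08, edgeR adjusted p = 0.101) were lower in siCLAP. For both the groups did not overlap, which with siCLAP lower held for 12.2% of all tested genes. DESeq2 called Th but not Cdh9. Over all lists 8 of 82 tested marker genes passed, beside 0.293% (56 of 19141) of all tested genes. The count was 0 with siCLAP-1 left out (32 at an unadjusted p under 0.05), 0 with siNC-3 left out (36 by the same measure), and 3 without both siCLAP-2 and siNC-3, which were Hoxc11, Hoxd10 and Hoxd11. The part of neuron composition in the receptor values was not tested.

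The injury markers, read here because Npy is known for its induction after nerve damage, had estimates above 0 in 11 of 11 tested genes, with a median log2 fold change of 0.384, beside 9473 of 19141 estimates above 0 and a median of −0.00178 over all tested genes. Atf3, a transcription factor of injured neurons, rose, at 22.5 ± 4.37 TPM in siCLAP and 11.8 ± 2.37 TPM in siNC (log2 fold change 0.97 ± 0.16, edgeR adjusted p = 0.0409), and 10 did not pass. The estimate for Npy itself was −0.41 ± 0.44. Among sympathetic neuron markers, the other usual source of Npy, Dbh, which encodes the noradrenaline-making enzyme, had 4 reads over the siCLAP libraries and 9 over the siNC libraries. Slc18a2 and Ddc, the 2 tested markers of that list, did not pass, and the list summed to 9.69 to 10.1 TPM in siCLAP and 8.16 to 9.31 TPM in siNC.

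Other cells that could add receptor transcripts were followed in the same way. The 8 spinal cord markers summed to 5.25 to 6.97 TPM in siCLAP and 4.81 to 6.1 TPM in siNC, most of it from the astrocyte gene Aqp4, which did not pass. Of the interneuron genes, Slc32a1 had 0 reads in all 6 libraries. Over the siCLAP and the siNC libraries, Gad1 had 1 and 0 reads, Gad2 had 7 and 10, and Slc6a5 had 8 and 3. Pax2 had more reads than these, at 0.916 ± 0.221 TPM in siCLAP and 1.03 ± 0.227 TPM in siNC. Pericyte and smooth muscle markers, a site of Npy1r in vessels, passed in 0 of 8 cases, with summed levels of 129 to 155 TPM in siCLAP and 150 to 162 TPM in siNC. Endothelial and macrophage markers passed in 0 of 7 cases each. Of 6 satellite glia markers Ednrb rose (0.45 ± 0.07, edgeR adjusted p = 0.0317). That list was mixed, with 4 estimates above 0, 2 below and a median of 0.0977. Of 6 Schwann cell markers Egr2 fell (−0.76 ± 0.13, edgeR adjusted p = 0.0389). All 6 estimates of the Schwann cell list were below 0, with a median of −0.151. Leptomeningeal markers summed to 7.94 to 18.2 TPM in siCLAP and 25.2 to 104 TPM in siNC, with a median log2 fold change of −1.44. The 5 caudal Hox genes, which mark the level along the body axis, had a median of −1.52. Hoxd10 was at 1.78, 7.94 and 0.75 TPM in siCLAP and 8.62, 15.6 and 14.8 TPM in siNC (−1.96 ± 0.55, edgeR adjusted p = 0.117). Hoxd11 was at 0.703, 3.53 and 0.301 TPM in siCLAP and 4.63, 8.87 and 8.12 TPM in siNC (−2.32 ± 0.55, edgeR adjusted p = 0.0856). Groups did not overlap for either gene, which with siCLAP lower held for 12.2% of all tested genes. Hoxa10, the most abundant of the 5, averaged 36.2 ± 0.839 TPM in siCLAP and 33.2 ± 1.09 TPM in siNC, and the sum of the list was 54.5 to 71.7 TPM in siCLAP and 68.5 to 83.1 TPM in siNC. In the main edgeR fit 0 genes passed in either list, with 3 in each at an unadjusted p under 0.05. The leptomeningeal marker Ptgds averaged 7.93 ± 5.06 TPM in siCLAP and 67.1 ± 41.4 TPM in siNC (−2.96 ± 0.56, edgeR adjusted p = 0.056). Without siCLAP-2, edgeR called Hoxc11, Hoxd10 and Hoxd11, beside 40 of 19139 genes in all. With the replicate block it called Hoxd11, Ptgds and Slc6a13, beside 203 of 19141. Without siNC-2 it called Ptgds and Slc6a13, beside 157 of 19141. What these differences contribute to the receptor values was not tested.

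**Figure D4:**
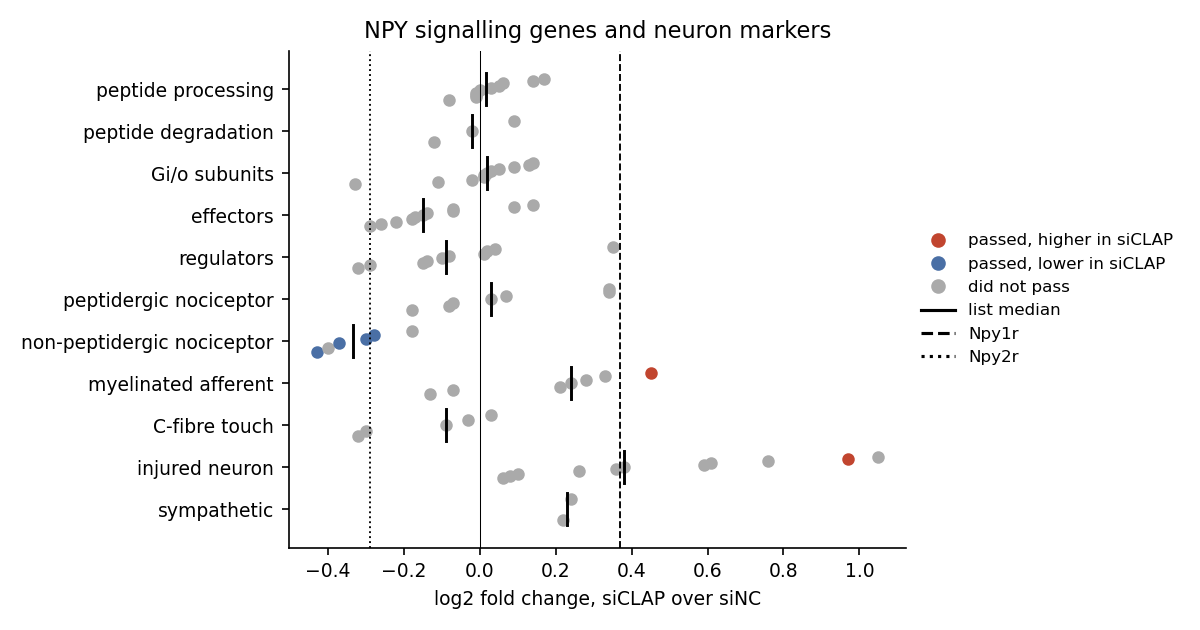
Log2 fold changes of siCLAP over siNC for tested genes of NPY signalling and for neuron markers, with list medians as black bars, genes that passed edgeR's test in red where higher and blue where lower in siCLAP, and the values of Npy1r (0.37, dashed) and Npy2r (−0.29, dotted). The genes of NPY signalling are all grey, and 4 non-peptidergic nociceptor markers are blue.

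Genes with profiles close to those of the receptors were sought by the root-mean-square difference of log2 CPM (counts scaled to the library total), centred on each gene's mean over the 6 libraries, among 16159 genes. Nearest to Npy1r were Pgf, a growth factor of the VEGF family (0.0356), Hrasls (0.0358), Hey2, a transcriptional repressor downstream of Notch (0.0377), Arhgap36 (0.0377) and Slc25a33, a mitochondrial carrier (0.0410). The spread of Npy1r itself around its mean was 0.192 on this scale. Among the nearest to Npy2r, whose own spread was 0.164, were Kcng2, a modifying potassium channel subunit (0.0246), Diras2, a small GTPase (0.0266), Mir568 (0.0302) and Adam11 (0.0353). Hey2 and Arhgap36 were also close to Npy1r in mean level, at 41.6 and 44.7 TPM. For Npy, with a spread of 0.681, the nearest genes were far less close, with differences of 0.227 to 0.314. They included Rps3a3, Mir7044, Mir8095 and Scarna6. Npy5r was below the TPM minimum and its neighbours were not sought.

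**Figure D5:**
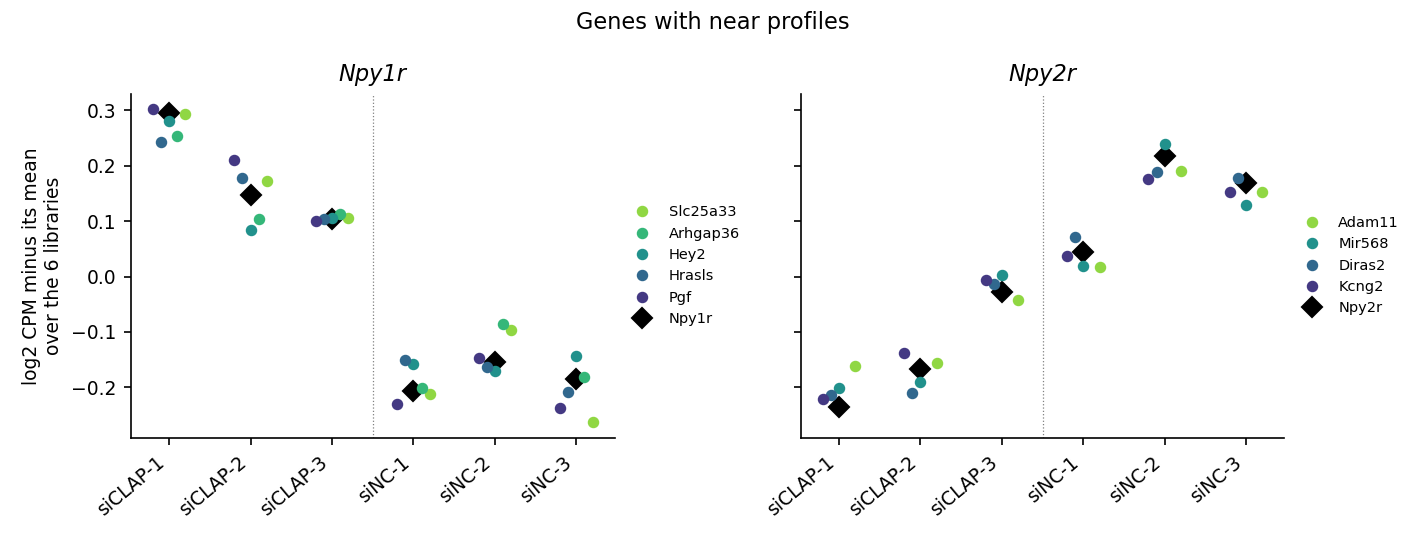
Log2 CPM minus the gene's own mean over the 6 libraries, for Npy1r (left) and Npy2r (right) as black diamonds and for near genes of each as coloured points, 5 for Npy1r and 4 for Npy2r, with siCLAP libraries left of the dotted line. Npy1r and its neighbours were highest in siCLAP-1, and Npy2r and its neighbours were highest in siNC-2.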

How the data were processed

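Total RNA was made into libraries with a NEBNext Ultra kit, per the labels' protocols. The submitters' processing notes name FastQC 0.11.8, HISAT2 2.1.0, featureCounts 1.6.2 and mm10. Which annotation and strand setting were used, and how reads with several matches were split, is not given there. The authors deposited TPM and expected counts per gene, and 39.4% of the deposited expected counts above 0 were whole within 1e-06. Whole libraries of a group differed by more than counting noise (mean chi-square per gene 4.07 to 9.34).

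Expected counts were rounded and tested with edgeR 4.0.16 (R 4.3.3), quasi-likelihood, TMM scaling (factors 0.995 to 1.011), no covariate, over 19141 genes whose mean TPM reached 1. The threshold was a Benjamini-Hochberg adjusted p under 0.05, and standard errors were derived from the fold change and the F statistic. Npy5r, below that minimum, was fitted over the 30347 genes with a count. Alternatives used DESeq2 1.42.0 and limma 3.58.1 on log2(TPM + 0.5), (TPM + 0.1) and (TPM + 1). Scripts were tested on simulated data. A floor of 3 counts equals 0.0648 CPM in the deepest and 0.140 CPM in the shallowest library, and floors and intervals cover counting error only. Exact permutation of 3 libraries against 3 has a smallest p of 0.1, so it was not used.

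The members and lists were chosen with earlier results of these data known. Named genes were the members, the pathway genes that passed or had the 2 smallest p in their list, marker genes that passed, and the 5 nearest profiles of each member (without Gm and Rik symbols), some of which are not reported here. The 4 other family members, Calca, Dpp4, Kcnj3, Kcnj5, Dbh, Slc32a1, Gad1, Gad2, Slc6a5, Pax2, Aqp4, Tac1, Adcyap1, Kit, Ntrk2, Ntrk3, Nefh, Th, Cdh9, Ptgds, Slc6a13, the Hox genes, Adrbk2, Slc18a2 and Ddc were named after their values were seen.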

Additional observations from a re-analysis of the deposited data

How the results depend on the processing

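Npy1r and Npy2r kept their direction in all 16 alternatives each, and the log2 fold changes moved by less than the spread between replicates. Without 1 library they ran from 0.30 to 0.41 for Npy1r, from −0.35 to −0.24 for Npy2r, from 0.34 to 0.61 for Npy5r and from −0.72 to 0.03 for Npy, the last value without siNC-1. Npy was between −0.09 and −0.02 with limma, and Npy5r was at 0.21 with limma on log2(TPM + 1), where a large pseudocount shrinks a low gene. The difference in the share of Npy1r, 9.67 percentage points, ran from 8.22 to 11.1 without 1 library. The count of genes called among all tested was 0 with limma at each of the 3 pseudocounts (3028 at an unadjusted p under 0.05 with 0.5), 608 with DESeq2, 118 with a mean TPM of at least 5, 835 with no TPM minimum, 13 without siCLAP-2 and siNC-3 (chosen after seeing the data) and 0 to 340 without 1 library, where leaving out siCLAP-1 gave 0 (1960 at an unadjusted p under 0.05), siCLAP-3 gave 340, siNC-2 gave 157 and siNC-3 gave 4. The count of pathway genes called was 5 with DESeq2, 2 with a mean TPM of at least 5, 6 with no TPM minimum and 0 to 3 without 1 library. The count of marker genes called was 21 with DESeq2, 0 with limma (35 at an unadjusted p under 0.05), 28 with no TPM minimum, 3 without siCLAP-2 and siNC-3, and 0 to 12 without 1 library. The causes were not tested. Npy and Npy5r have no value at a mean TPM of at least 5.

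The groups share replicate numbers, but same-numbered libraries did not deviate together (correlations over genes of 0.0656, 0.00766 and −0.0443), and not every library correlated best with its own number. With the replicate block, Npy1r, Npy2r, Npy5r and Npy stood at 0.37, −0.29, 0.47 and −0.37, and 203 genes in all, 2 pathway genes (Gnao1 and Rgs3) and 17 marker genes were called. Depth limits Npy and Npy5r, with 3 to 30 reads in a library.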
